A study of Rattus norvegicus with 4 samples.

Results

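Nuclei that carry RNA of Klhl1, an actin-binding protein of the Kelch family, together with RNA of Htr7, a serotonin receptor, or Prlr, the prolactin receptor, are a small GABAergic population in these punches of rat nucleus accumbens. A nucleus was a member when it had at least 2 unique molecular identifiers (UMIs, the counted RNA molecules) of Klhl1, at least 1 of Htr7 and Prlr together, at least 1 of Gad1 and Gad2 together, at most 1 of Drd2 and Ebf1 together and at most 4 of Grm8. With at least 200 detected genes required, 189 of 26228 nuclei were members, which is 0.721%. Each of the 4 libraries pooled the accumbens tissue of 4 Sprague-Dawley rats, 90 to 120 days old, of 1 sex and 1 treatment (16 rats in all). They are called saline female, cocaine female, saline male and, last, cocaine male, and lists of 4 values keep that order. Rats received cocaine at 20 mg per kg intraperitoneally or the same volume of saline on 7 successive days, were placed in an open field, and were killed 1 hour after the last injection. All groups share the open field, pair housing and a 2 mm punch placed on the accumbens core, and nuclei were sorted on a DNA stain.

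The accumbens is built mostly of medium spiny neurons, GABAergic projection cells that come from the lateral ganglionic eminence and express the D1 or the D2 dopamine receptor. Directly below and behind it lie the ventral pallidum and the basal forebrain, whose GABAergic and cholinergic neurons come from the medial eminence and the preoptic region and keep transcription factors such as Nkx2-1, Lhx6 and Lhx8. The lateral septum and the bed nucleus of the stria terminalis border it medially and caudally. Which of these the Klhl1 and Htr7 nuclei resemble, and whether their number or RNA differed after cocaine, are the questions followed here.

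Among females 94 members came from the saline and 47 from the cocaine library, and among males 37 and 11. Saline female thus gave 94 of the 189 members, and cocaine male was the thinnest library. The members' summed UMIs were 1008577, 399991, 334589 and 82376. Their median UMIs per nucleus were 9913, 7818, 8163 and 6203, against medians of 4363 to 5066 over all nuclei of the libraries. Scrublet, a doublet caller, marked 12 members, and 176 members remained once the highest doublet scores were left out. Pairs of libraries had 10 to 18 cell barcodes in common, and no member barcode was shared. The Y-linked genes Eif2s3y and Kdm5d had 0 member UMIs in both female libraries and 25 and 22 in saline male, 5 and 8 in cocaine male.

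The share of members was lower in the cocaine library than in the saline library of each sex, but the treatment groups overlapped. Members made up 1.47% of nuclei in saline female (95% exact binomial interval 1.19 to 1.80), 0.647% in cocaine female (0.476 to 0.859), 0.596% in saline male (0.420 to 0.820) and 0.173% in cocaine male (0.0862 to 0.309). These intervals cover counting error only. The cocaine female value lies above the saline male value, so the order of the 4 libraries follows sex and treatment together. The mean share was 0.410% ± 0.335 (SD, n = 2) after cocaine and 1.04% ± 0.622 (SD, n = 2) after saline, a difference of -0.625 percentage points (two-sided exact permutation test, p = 0.667). With 2 libraries per treatment, the smallest p that this exact permutation test allows is 0.333.

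The order of the libraries was the same at equal depth. After every nucleus with at least 3000 UMIs was thinned to that number, 22 of 4059 saline female, 13 of 4733 cocaine female, 10 of 4157 saline male and 2 of 3960 cocaine male nuclei met the rule. The thinned shares were 0.542%, 0.275%, 0.241% and 0.0505%, in the same order as the unthinned ones. Thinning left out 2316, 2532, 2056 and 2415 shallower nuclei. Shares of D1 neurons were similar between treatments, with a cocaine to saline ratio of 1.06 in females and 1.10 in males, and for D2 neurons the ratios were 1.05 and 1.01. For members the ratios were 0.439 and 0.290. Nuclei of the same transcriptome cluster that were not members had ratios of 0.480 and 0.771, so they were also fewer in the cocaine libraries. Without the saline female library the difference was -0.186 points, without cocaine female -0.862, without saline male -1.06 and without cocaine male -0.388.

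**Figure D1:**
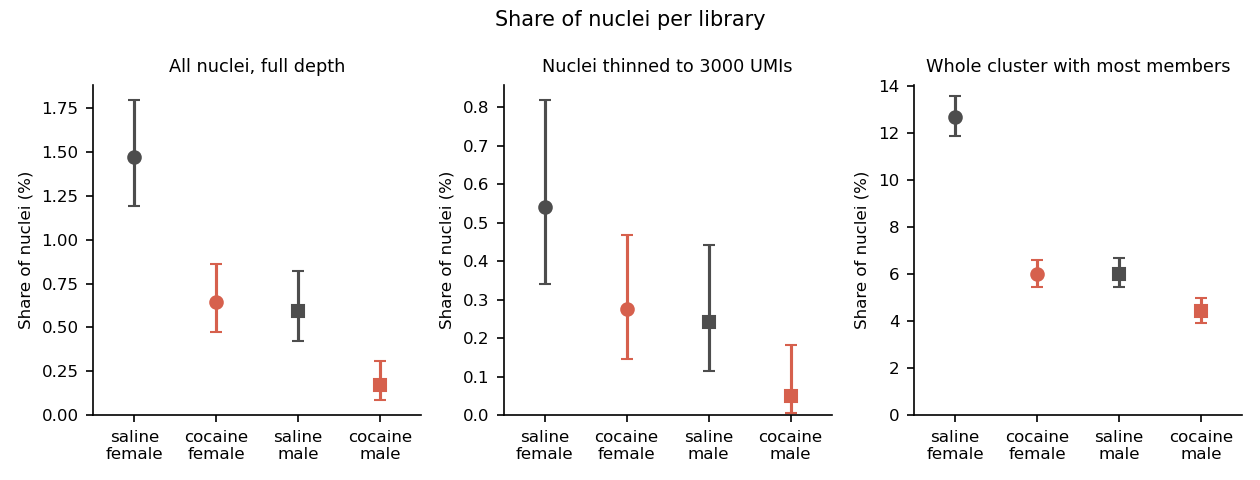
Share of nuclei per library in percent, with 95% exact binomial intervals for counting error (circles female, squares male, grey saline, red cocaine), for the rule at full depth, for the rule after thinning to 3000 UMIs, and for the whole transcriptome cluster that holds most members. Saline female is highest at 1.47%, 0.542% and 12.7%, and cocaine male lowest at 0.173%, 0.0505% and 4.43%.

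The genes of the rule describe how the members were chosen and support nothing by themselves. In CPM, the count per 1000000 UMIs of the members, Klhl1 was 426, 473, 383 and 376, and Htr7 was 299, 270, 338 and 352. Prlr was 95.2, 90.0, 77.7 and 194. Of the 189 members, 107 had Htr7 without Prlr, 31 had Prlr without Htr7 and 51 had both. Just outside the limits lay 122 nuclei with 1 UMI of Klhl1, 70 with neither Htr7 nor Prlr, 22 without Gad1 and Gad2, 6 with 2 UMIs of Drd2 and Ebf1 and 5 with 5 UMIs of Grm8. Just inside, 79 members had exactly 2 UMIs of Klhl1. Those 79 had Lhx8 at 161 CPM and Unc5d at 1380 CPM, and the 122 nuclei with 1 Klhl1 UMI had 168 and 1120 CPM.

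Both label markers outside the rule were high in members. Unc5d, a receptor for netrins and FLRT proteins, was at 1530, 990, 1130 and 1360 CPM in the 4 libraries, a mean of 1250 ± 238 (SD, n = 4), beside 25.3 in D1 neurons, 394 in D2 neurons, 749 in Grm8 neurons and 351 in other GABAergic nuclei. Flt3, a receptor tyrosine kinase best known from blood progenitors, was at 134, 100, 155 and 85.0 CPM in members, and at 3.41 in D1 and 4.56 in D2 neurons. Every member library was above every D1 and D2 library for both genes. Since the members were picked from these same nuclei, this and all following differences from other nuclei are descriptions without a test. Here D1 neurons are 2450 nuclei with Ebf1 and no Drd2, D2 neurons 3450 nuclei with Drd2, Grm8 neurons 2339 GABAergic nuclei with at least 5 UMIs of Grm8, and other GABAergic nuclei 4262 nuclei outside those gates without Klhl1. Medium spiny neurons are still common among the last, where Rarb was at 1790 CPM.

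The rule asked for a Gad1 or Gad2 UMI, so a GABAergic identity was built into the choice of members. Another GABAergic gene, which the rule did not use, is a description of nuclei so chosen. Slc32a1, the vesicular GABA transporter, was at 52.5, 40.0, 44.8 and 48.6 CPM in members and at 24.7 and 27.6 in D1 and D2 neurons. Thinned to 3000 UMIs, 15.3% of members had a Slc32a1 UMI, against 7.73% of D1 and 8.37% of D2 neurons. Glutamatergic markers were near 0: Slc17a6, the vesicular glutamate transporter of subcortical neurons, had 5, 1, 0 and 0 UMIs, Slc17a7 had 1 UMI in all, and Neurod2 had 0 UMIs, which allows up to 1.64 CPM over all members. Summed over the 6 glutamatergic markers, members had 11.9, 25, 0 and 0 CPM. The 22 nuclei that missed only the limit on Gad1 and Gad2 had Slc32a1 at 11.1 CPM and Slc17a6 at 38.7 CPM.

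Pallidal and basal forebrain transcription factors were high in the members. Lhx8, a LIM factor of medial-eminence and basal forebrain neurons, had 152, 50, 55 and 22 UMIs, or 151, 125, 164 and 267 CPM, beside 1.04 CPM in D1, 4.82 in D2, 4.66 in Grm8 neurons and 13.9 in other GABAergic nuclei. All 4 member libraries were far above the other gates, and oligodendrocyte nuclei, which mark background RNA, had 2.05 CPM. Lhx6, the LIM partner that carries the medial-eminence programme, was at 52.5, 60, 32.9 and 60.7 CPM, against 0.145 in D1 and 1.45 in D2 neurons. Nkx2-1, the regional factor of the medial eminence, had only 19 UMIs, yet stood at 9.91, 10.0, 12.0 and 12.1 CPM against 0.380 and 0.767. Gbx1, a homeobox gene, was at 32.2 ± 11.9 CPM (SD, n = 4) and Npas1, known from pallidal neurons, at 41.4 ± 21.0, where no D1, D2 or Grm8 mean reached 4. Sox6, a factor of medial-eminence lineages, was at 297 ± 128 CPM, beside 180 in other GABAergic nuclei. Etv1 was uneven, at 62.5, 52.5 and 80.7 CPM in 3 libraries and 340 in cocaine male.

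Of the 7 genes of that list, 6 were higher in members than in D1 neurons in all 4 libraries, all but Etv1. All 7 were higher than in D2 and than in Grm8 neurons in all 4 libraries. In cocaine male, Nkx2-1, Gbx1 and Npas1 rested on 1, 2 and 2 UMIs, and 1 UMI there is 12.1 CPM. Of the 6 listed genes with at least 20 member UMIs, 5, 6 and 6 were higher than in D1, D2 and Grm8 neurons. Among the 9324 genes with at least 20 member UMIs, 35.8% were higher than in D1 neurons and 35.5% higher than in D2 neurons in all 4 libraries, while 14.2% and 14.4% were lower. Against Grm8 neurons 28.6% were higher. That floor on member UMIs leans towards genes that are high in members. The median log2 ratio to D1 neurons was 4.80 for the 6 listed genes above the floor and 0.27 for all genes above it. In thinned nuclei, Lhx8 was seen in 31.7% of members (95% exact interval 25.2 to 38.9), in 0.0411% of D1 and in 0.726% of D2 neurons. Sox6 was seen in 29.1%, 1.97% and 3.28%. Lhx6, Gbx1 and Npas1 were seen in 12.7%, 9.52% and 7.94% of members and in at most 0.349% of D1 or D2 neurons. Before thinning the median UMIs were 9016 in members, 8219.5 in D1 and 7703.5 in D2 neurons.

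**Figure D2:**
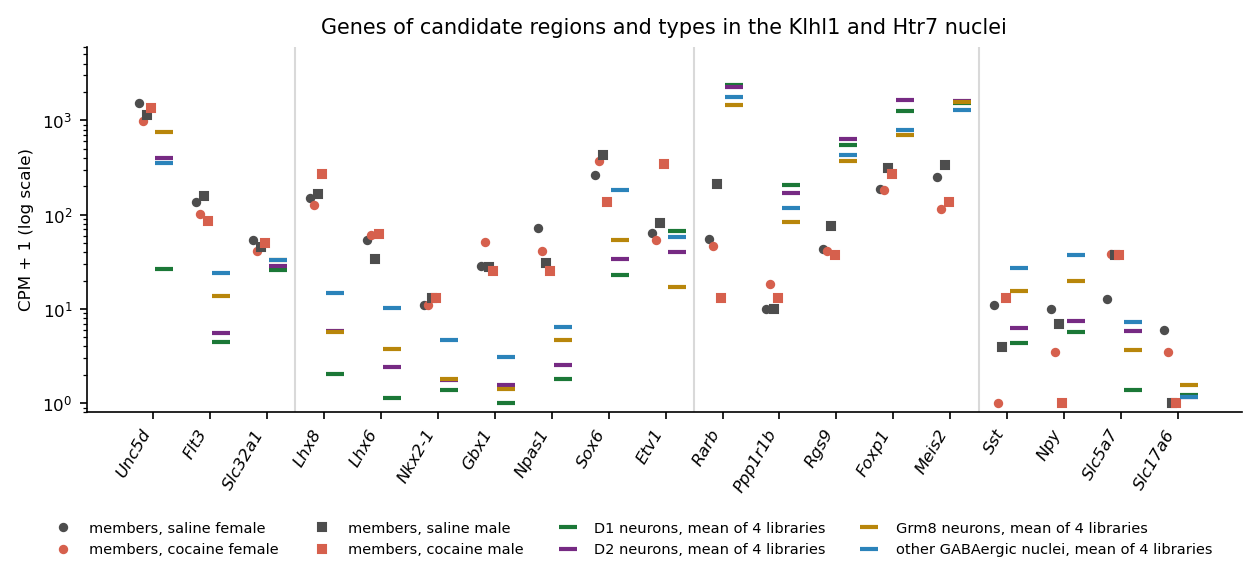
Levels in CPM plus 1 on a log axis of label markers and Slc32a1, pallidal and basal forebrain factors, medium spiny neuron genes and Meis2, and markers of other neurons. Points are the members of each library and bars the mean of 4 libraries in D1, D2, Grm8 and other GABAergic nuclei. Lhx8, Lhx6, Nkx2-1, Gbx1 and Npas1 sit above all 4 bars, and Rarb, Ppp1r1b, Rgs9 and Meis2 below them.

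Medium spiny neuron genes were low. Rarb, a retinoic acid receptor, was at 54.5, 45.0, 212 and 12.1 CPM in members and at 2350 and 2270 in D1 and D2 neurons. Ppp1r1b, which encodes the dopamine signalling protein DARPP-32, was at 11.9 ± 4.04 CPM (SD, n = 4) against 205 and 169. Rgs9, Adcy5 and Foxp1, a striatal G-protein regulator, the striatal adenylyl cyclase and a striatal forkhead factor, were at 48.4, 117 and 236 CPM, against 547, 796 and 1270 in D1 neurons. Pde10a, the striatal phosphodiesterase, was at 669 ± 176 CPM, reduced to a lesser degree from 2240 and 2610. Of 14 such genes, 12 were lower than in D1 neurons in all 4 libraries (14.2% of genes above the floor were), all but the D2-type genes Penk and Adora2a, and 10 were lower than in D2 neurons. The 4 not lower than in D2 neurons were the D1-type genes Drd1, Tac1, Pdyn and Isl1. Of the 10 listed genes above the floor, 9 were lower than in D1 and 8 lower than in D2 neurons. In thinned nuclei Rarb was seen in 10.1% of members against 96.8% of D1 and 97.0% of D2 neurons. Summed over the 14 genes, members had 1440, 1260, 1860 and 995 CPM, against 7860 to 8470 in D1 neurons.

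Other lineage transcription factors were mixed. Meis2, a homeobox gene of striatal and septal lineages, was at 247, 115, 338 and 134 CPM in members and 1520 in D1 neurons. Only 16.9% of thinned members had a Meis2 UMI, against 97.4% of D1 neurons. Zfhx3 and Zfhx4, zinc-finger homeobox genes, were at 245 ± 110 and 196 ± 81.2 CPM (SD, n = 4), and both were above other GABAergic nuclei in all 4 libraries, where 27.5% of genes above the floor were. Isl1 was at 33.6 CPM, above the 4.01 of D2 neurons and below the 57.7 of D1 neurons. Six3, Dlx5 and Dlx6, known from striatal lineages, had 15, 19 and 20 UMIs over all members.

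Markers of the septum and the extended amygdala gave mixed values. Crhr2, a receptor typical of the lateral septum, had 0 UMIs. Zic1, a zinc-finger factor of septal lineages, was at 15.9, 25, 2.99 and 0 CPM, against 0.476 in D1, 0.383 in D2 and 2.06 in other GABAergic nuclei. Zic4 was at 5.95, 12.5, 14.9 and 0 CPM against 0.764, 0.414 and 2.18. Both were above those 3 gates in 3 libraries, and at 0 UMIs in cocaine male. Zic2 and Zic5 had 3 and 1 UMIs. Trpc4, a channel abundant in the lateral septum, was at 138, 220, 77.7 and 24.3 CPM, above D1 and D2 neurons in all 4 libraries. It was above other GABAergic nuclei (59.6 on average) in 3 libraries and below them in cocaine male, with 2 UMIs. The steroid receptors Esr1 and Pgr, widely used for the bed nucleus and preoptic area, were at 18.7 ± 7.71 and 33.9 ± 18.0 CPM (SD, n = 4), each above D1, D2 and other GABAergic nuclei in all 4 libraries. Prkcd and Cyp19a1 had 1 UMI each. Crh, the stress neuropeptide, had 7, 6, 9 and 0 UMIs. Of 6 island of Calleja and intercalated cell genes, 4 were below D1 neurons and 3 below D2 neurons in all 4 libraries, and 0 were above. Of the 4 listed genes above the floor, 3 were below D1 neurons and 1 below D2 neurons. Of all genes above the floor, 14.2% and 14.4% were below. Drd3 was at 5.60 CPM against 38.2 in D1 and 16.3 in D2 neurons. Foxp2 was at 331 ± 243 against 912 in D1 neurons, but it was above D2 neurons (186 on average) in 3 libraries.

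Interneuron and cholinergic markers were mixed. Sst and Npy, neuropeptides of 1 striatal interneuron class, were at 6.26 and 4.35 CPM, below the 26.0 and 36.3 of other GABAergic nuclei, and Vip had 0 UMIs. Chat, the acetylcholine-synthesising enzyme, had 10, 6, 6 and 0 UMIs, and Slc5a7, the choline transporter, 12, 15, 12 and 3. At 30.4 ± 12.4 CPM (SD, n = 4), Slc5a7 was above D1, D2 and other GABAergic nuclei in all 4 libraries. Kit, a receptor of a striatal interneuron class, was at 33.6 ± 18.9 CPM against 0.952 in D1 neurons and 28.1 in other GABAergic nuclei. Of 6 medial-eminence interneuron genes, Lhx6 and Kit were above D1 neurons in all 4 libraries and 0 were below. Against other GABAergic nuclei 1 was above and 3 were below, and those 3, Sst, Npy and Nos1, had 12, 12 and 8 member UMIs. Of the 2 listed genes above the floor, 1 was above other GABAergic nuclei and 0 were below. Of all genes above the floor, 27.5% were above these nuclei and 13.8% below. Adarb2, often used for caudal-eminence interneurons, was at 2230 CPM but also at 1950 in oligodendrocyte nuclei. Calb2, of the same list, was at 11.4 CPM against 0.505 in D1 neurons. Of the 7 genes of that list, 2 were above D1 neurons in all 4 libraries and 3 below. Those 3, Htr3a, Cck and Lamp5, had 11, 1 and 5 member UMIs. Only 1 gene of the list, Adarb2, reached the floor of 20 member UMIs, and it was above. Over all genes above the floor, 35.8% were above D1 neurons and 14.2% below. Astrocyte markers summed to 23.9 to 103 CPM in members, within or near the 30.3 to 66.4 of D1 neurons, and the microglial and vascular lists to at most 12.1 and 2.5. Of the oligodendrocyte precursor markers, Pdgfra had 0 UMIs and Vcan 13, 15, 1 and 0. Oligodendrocyte markers are given with the cocaine comparison.

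The genes that led members over other GABAergic nuclei were ranked by the smallest of the 4 library ratios. Lhx8 came first, with ratios from 6.20 to 42.9. After it came Tafa1, a secreted chemokine-like protein, at 525 ± 148 CPM (SD, n = 4) against 76.7, and Elavl2, a neuronal RNA-binding protein, at 507 ± 101 against 116. Car10 (474 CPM against 83.7), Cacna2d2, a calcium channel subunit (322 against 80.4), and Cadps2, a vesicle-priming protein (298 against 57.8), followed. Among the 20 leading genes, Ctbp2, Dscam, Ccdc85a, Ccdc136, Ndst4, Iqsec3, Npas3, Unc5d, Enpp2, Plcb4, Cdh18, Clstn2 and Mast4 complete those with a symbol, and 1 has only an identifier. All 19 named genes were also above D1 and D2 neurons in every library. Npas3, Enpp2 and Mast4 were higher still in oligodendrocyte nuclei, at 1260, 1720 and 5950 CPM against 677, 152 and 490 in members. No lower gene is named by the matching rule, because 28 genes tied at 0 member UMIs.

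Among the other serotonin receptors, Htr2b was above the D1, D2, Grm8 and other GABAergic gates in all 4 libraries, at 40.7 ± 13.6 CPM (SD, n = 4), but oligodendrocyte nuclei had 28.9. Htr2c, a Gq-coupled receptor, was at 269, 545, 427 and 741 CPM, below D2 neurons (919) in all 4 libraries. Htr4, which raises cyclic AMP, was at 186 ± 25.9 CPM (SD, n = 4), above D1 neurons (35.4) and below D2 neurons (313) in all 4 libraries. Htr1b was at 8.22 CPM against 21.6 in D1 neurons. Htr1a, Htr1d, Htr1f and Htr5b had 0 UMIs in members. Downstream of the prolactin receptor, Stat5b and Stat3, the transcription factors it activates, were at 145 and 33.9 CPM, above the 81.5 and 19.4 of D1 neurons in all 4 libraries. The kinase Jak2 was lower, at 87.9 against 172, and the feedback inhibitors Socs1 and Socs3 had 0 UMIs.

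Guidance receptors split by family. Unc5c, like Unc5d a repulsive netrin receptor, was at 654 ± 69.3 CPM (SD, n = 4) against 115 in D1 and 283 in D2 neurons, while Dcc, the attractive receptor, was at 2350 against 2950 and 2890. Ntn1, a netrin ligand, was at 94.2 CPM, below D1 (184) and D2 neurons (242) in all 4 libraries. Flrt2, an FLRT ligand of the Unc5 receptors, was at 174 CPM, above D1 neurons (133), and Flrt3 at 30.8, below them (68.6). Dopamine receptors were low, with Drd1 at 10 UMIs over all members, Drd3 at 16 and Drd5 at 0. Oprm1, the mu opioid receptor, was at 32.4 CPM, close to the 29.7 and 30.5 of D1 and D2 neurons, and Oprl1, the nociceptin receptor, at 17.4 against 1.89 and 1.83.

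The members were not 1 uniform type. Of the 176 members kept for clustering, 142 fell in a cluster of 1804 nuclei led by Klhl1, Prlr, Htr7, Stac, Car10 and Trpc4, and 30 in a cluster of 512 nuclei led by Il1rapl2, Kit and Egfr. A further 3 were in a cluster led by Chat and Slc5a7 and 1 in a cluster led by Npy and Sst. Members were at most 7.87% of any cluster. When the 2316 nuclei of the first pair of clusters were clustered again, members appeared in 13 of 23 sub-clusters, and 8 sub-clusters held at least 5 members (165 in all). Genes of the nuclei clustered define these sub-clusters, so their levels are given as a description of the members in each.

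Lhx8 UMIs were found in members of 6 of these 8 sub-clusters, in unequal degree. Sub-cluster 6 held 43 members, of which 30 had an Lhx8 UMI. It had Unc5d at 2600 CPM and Schip1, a cytoskeletal scaffold gene, at 1640, with 0 UMIs of Sox6 and Gbx1. Sub-cluster 5 held 30 members, 25 of them with Lhx8, and these had Foxp2 at 957 CPM, Etv1 at 295, Trh, a neuropeptide precursor, at 132 and Kit at 99.8. Foxp2 was seen in 14 of the 30. Sub-cluster 8 held 27 members, 24 with Lhx8, and was set apart by Ndst4, a heparan sulfate enzyme, at 721 CPM. Its Gbx1, at 74.7 CPM, was near the 73.7 of sub-cluster 2 and below the 141 of sub-cluster 13.

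Sox6 was highest in sub-clusters 2 and 13, and was also seen in 15 of the 30 members of sub-cluster 5. In sub-cluster 2, with 25 members, Sox6 was at 1170 CPM and seen in 24, Npas1 at 214 and seen in 10, and Lhx8 was seen in 16. In sub-cluster 13, all 7 members had Sox6 (1030 CPM), with Gbx1 at 141 and Etv1 at 408. Sub-cluster 0, with 17 members, had Esr1 at 89.3 CPM, Foxp2 at 343 and Lhx8 at 20.6. Sub-clusters 17 and 7, with 10 and 6 members, had 0 UMIs of Lhx8 and Lhx6 and had Meis2 at 2060 and 1510 CPM, near the 1520 of D1 neurons. Sub-cluster 17 also had Crh at 174 CPM, Schip1 at 4250 and Cyct, a testis-type cytochrome c, at 1490.

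The mix of these groups differed between libraries. Sub-cluster 6 held 30.8% of the members kept in saline female, 20.9% in cocaine female, 9.09% in saline male and 33.3% in cocaine male. Sub-cluster 5 held 13.2%, 11.6%, 27.3% and 44.4%. The cocaine male library had 9 such members, 4 in sub-cluster 5, 3 in sub-cluster 6, 2 in sub-cluster 8 and 0 in the Meis2-rich sub-clusters 17 and 7. Sub-cluster 17 had 4, 3 and 3 members from the other libraries, and sub-cluster 7 had 5, 0 and 1.

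**Figure D3:**
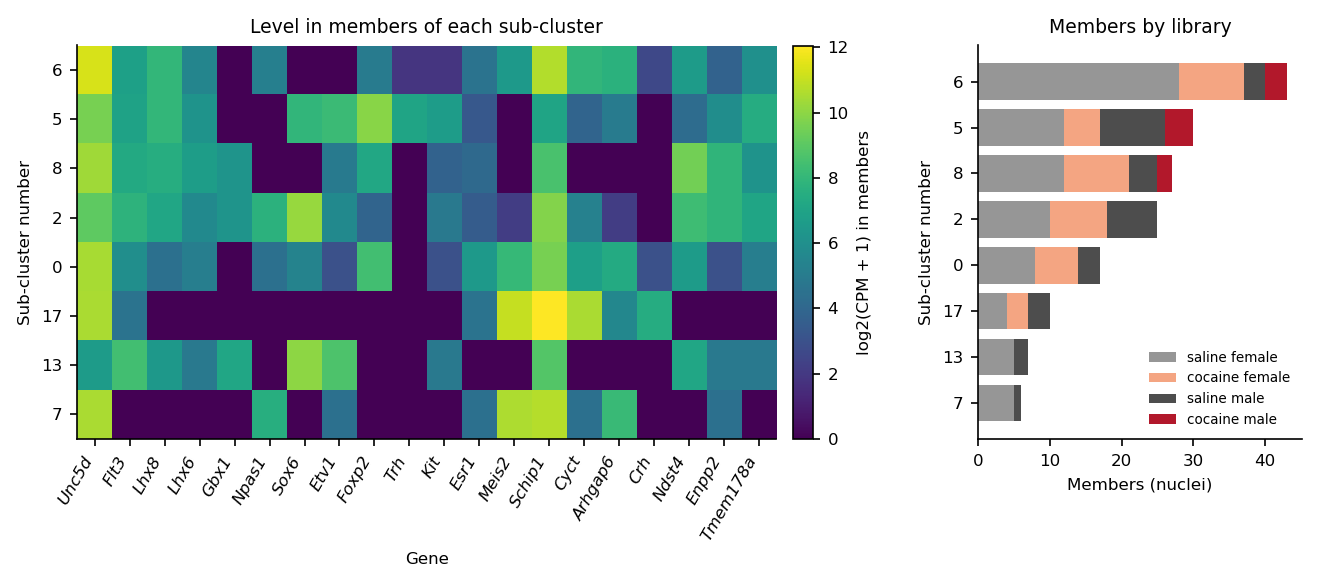
Left, log2 of CPM plus 1 of 20 genes (columns) in the members of the 8 sub-clusters that hold at least 5 members (rows, largest first). Right, number of members per sub-cluster, stacked by library. Meis2, Schip1 and Cyct are brightest in sub-cluster 17, Ndst4 in sub-cluster 8, Foxp2 in sub-cluster 5 and Sox6 in sub-clusters 2 and 13, and cocaine male has members in sub-clusters 6, 5 and 8.

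After cocaine, 2 genes were called higher in the members and 0 lower, of 6642 tested (0.0301%; edgeR quasi-likelihood test on UMIs summed per library with sex as a covariate, Benjamini-Hochberg adjusted p at most 0.05). At an unadjusted edgeR p under 0.05 there were 272 of the 6642 genes, a share below 0.05. DESeq2 called 0, with 28 at an unadjusted p under 0.05. Values below are CPM scaled by the trimmed mean of M-values over the tested genes. Ndst4 had 181, 157, 47 and 32 UMIs, or 194, 416, 154 and 412 CPM. Both cocaine libraries were above both saline libraries (log2 fold change 1.21 ± 0.24 SE, adjusted p = 0.0347). Enpp2, which encodes the lysophospholipase autotaxin, had 73, 82, 30 and 20 UMIs, or 78.4, 217, 98.2 and 258 CPM. Its groups did not overlap either (log2 fold change 1.44 ± 0.29 SE, edgeR adjusted p = 0.0347).

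Neither call held across the whole cluster of 1804 nuclei, where the log2 fold change was -0.20 for Ndst4 and 0.12 for Enpp2. That cluster had 2 calls, 0 of them shared with the members. In members the number of calls ran from 1 to 76 when a library was left out: 6 without saline female, 76 without cocaine female, 1 without saline male and 19 without cocaine male. Both genes were also among the calls without cocaine female and without cocaine male, and neither was without either saline library. With relative log expression size factors the calls were 2 higher and 4 lower, and with plain library totals 0. In simulated counts of the same depth, 37.2% of 94 genes changed by 1 on the log2 scale and 92.4% of 92 changed by 2 were called.

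Sub-cluster makeup differed between libraries, and so did the level of both called genes within sub-clusters. In members of sub-cluster 8, which had the most Ndst4, its unscaled level was 604, 826, 828 and 1060 CPM in the 4 libraries from 12, 9, 4 and 2 nuclei. Over all nuclei of that sub-cluster it was 782, 756, 1110 and 716 CPM, with no order by treatment. In sub-cluster 2, the 8 cocaine female members gave 72 of the 157 Ndst4 UMIs and 45 of the 82 Enpp2 UMIs of that library. Levels in members of sub-cluster 2 were 93.6, 872 and 67.5 CPM for Ndst4 in saline female, cocaine female and saline male. For Enpp2 they were 133, 545 and 67.5 CPM, and cocaine male had 0 members there. Over all nuclei of sub-cluster 2, Ndst4 was at 279, 236, 144 and 28.7 CPM and Enpp2 at 90.0, 196, 116 and 43.0. Enpp2 was at 1720 CPM in oligodendrocyte nuclei, and oligodendrocyte markers in members were higher in the cocaine library of each sex, with overlapping groups. The 5 oligodendrocyte markers summed to 162, 315, 335 and 850 CPM in members, with Mbp, the myelin basic protein gene, at 82, 54, 48 and 31 UMIs, and none of the 5 was at 0 in any library. In D1 neurons the same sum ran from 195 to 244. The part of the sub-cluster mix and of oligodendrocyte RNA in the calls was not tested.

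The next genes by p did not pass. Tmem178a, a membrane protein, had log2 fold change 1.28 ± 0.32 SE (62, 45, 28 and 27 UMIs, edgeR adjusted p = 0.122). Foxp2 had 0.99 ± 0.25 SE, with 172, 255, 255 and 734 CPM and overlapping groups. On the lower side, Arhgap6, a GTPase-activating protein, had 122, 16, 41 and 2 UMIs and a log2 fold change of -1.76 ± 0.39 SE (edgeR adjusted p = 0.0634). Schip1 had 1150, 777, 1360 and 219 CPM and -1.32 ± 0.29 SE. Meis2 had 267, 122, 370 and 142 CPM and -1.21 ± 0.27 SE. For both, the 2 cocaine libraries were below the 2 saline libraries, as they were for Tmem132d (-1.27) and Cyct (-1.44). Such a lack of overlap was found in 16.2% of tested genes with cocaine higher and 17.6% with cocaine lower. Schip1, Meis2 and Cyct were highest in members of sub-cluster 17, which had 4, 3, 3 and 0 members in the 4 libraries. Over the whole cluster, Meis2 had 0.32, Arhgap6 0.22 and Cyct 0.01, against their sign in members.

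**Figure D4:**
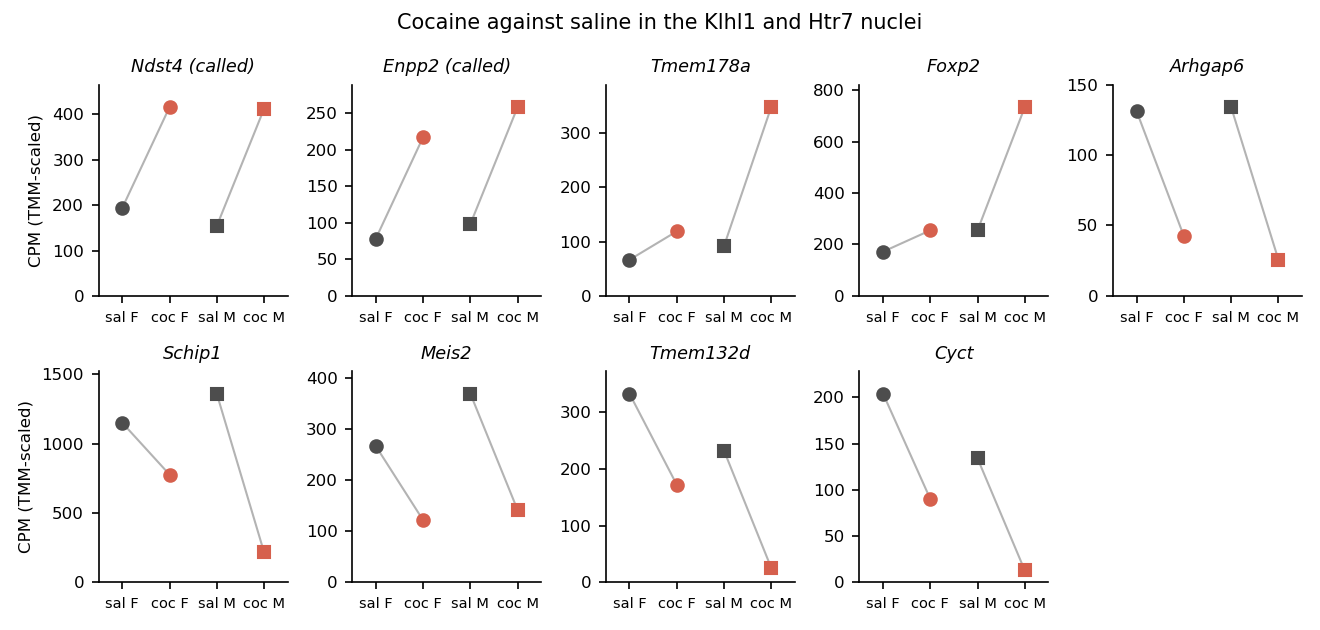
TMM-scaled CPM of 9 genes in the members of each library (circles female, squares male, grey saline, red cocaine, lines join the libraries of 1 sex, and each vertical axis starts at 0). Ndst4 and Enpp2, the 2 called genes, are above both saline values in both cocaine libraries. For the 7 others, which were not called, the library that stands apart is often cocaine male, at 734 for Foxp2 and 219 for Schip1.

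Both called genes are among the 20 that lead members over other GABAergic nuclei. Of the label markers, the pair outside the rule did not pass, with Unc5d at -0.24 ± 0.25 SE and Flt3 at -0.58 ± 0.32 SE. Of the 7 pallidal and basal forebrain genes, 6 were tested and 0 passed, 4 with a fold change above 0 and 2 below (median 0.19, beside -0.00 over all 6642 genes). Lhx8 was at 163, 133, 180 and 283 CPM, 0.06 ± 0.28 SE. Among serotonin receptors 4 were tested, Htr7 of the rule included, and 0 passed. Htr2c came nearest, with 271, 218, 143 and 61 UMIs, 0.88 ± 0.24 SE and an edgeR adjusted p of 0.194, and both cocaine libraries above both saline libraries. Of 5 prolactin pathway genes tested, Prlr included, 0 passed, and all 5 had a fold change above 0 (median 0.24). Of 9 guidance genes tested, 7 were below 0 and 0 passed. Of 7 medium spiny neuron genes tested, 6 were below 0 (median -0.27) and 0 passed.

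Immediate-early genes, which neurons transcribe within minutes of strong activity, were mixed in the members. Of 32 listed, 14 were lower and 1 higher than in D1 neurons in all 4 libraries. Of the 10 with at least 20 member UMIs, 3 were lower (14.2% of all genes above that floor were) and 1 higher, and their median log2 ratio was 0.12. The higher gene was Vgf, a secretory peptide precursor, at 68.8 ± 16.8 CPM (SD, n = 4) against 24.6. Arc, Egr2, Egr3 and Atf3 had 0 UMIs, and Homer1, a synaptic scaffold gene with an activity-induced form, was at 166 ± 27.4 CPM (SD, n = 4) against 794 in D1 neurons. Only 6 had enough counts to test against cocaine and 0 passed. Nr4a3, a nuclear receptor gene, had 9, 13, 0 and 3 UMIs (log2 fold change 2.22 ± 0.78 SE, edgeR adjusted p = 0.688), and Junb, a part of the AP-1 factor, had 10, 15, 1 and 3 (2.10 ± 0.69 SE). In D1 neurons of the same libraries Nr4a3 had 2.13 and an edgeR adjusted p of 1.36e-25. The difference between members and D1 neurons was 0.12 for Nr4a3 (edgeR adjusted p = 1.00), an estimate that rests on 25 member UMIs.

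The cocaine effect in members was set against that in the D1 and D2 neurons of the same libraries, with library as a block. The D2 gate was set on Drd2 without a marker of spiny neurons, so it is not limited to them. Slc5a7 and Chat were at 4.84 and 4.35 CPM in D2 neurons, against 0.38 and 0.14 in D1 neurons. It differed from D1 neurons for 14 of 12492 genes (0.112%) and from D2 neurons for 37 of 13016 (0.284%). Without the library block the D1 count was 2. For Meis2 the difference was -1.31 ± 0.307 SE from D1 neurons (edgeR adjusted p = 0.0329) and -1.26 ± 0.300 from D2 neurons (0.0208). In those neurons Meis2 itself had log2 fold changes of -0.02 and -0.04. Ndst4 differed from D2 neurons by 1.98 ± 0.297 SE, where its own level went from 17.7 to 11.2 CPM in females and from 11.8 to 5.58 in males. Enpp2 differed from D2 neurons by 1.34 ± 0.337 SE (edgeR adjusted p = 0.0358), but from D1 neurons its difference of 1.26 had an adjusted p of 0.121.

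For other genes the values moved in the D2 gate and little in members. Slc5a7 and Lhx6 were also lower after cocaine in that gate (log2 fold changes -1.78 and -2.3). The part of other cell types within the gate was not tested. Lhx8 had a member log2 fold change of 0.06, and its difference from D2 neurons was 2.04, where D2 neurons went from 8.23 to 2.97 CPM in females and from 7.38 to 0.716 in males. Dscam (0.02 in members), Plcb4 (0.03), Clstn2 (0.09), Tafa1 (0.23) and Iqsec3 (0.29) had the same form, and all are among the genes that lead members over other GABAergic nuclei. Klhl1, which the rule used, was at 11.7, 4.38, 4.32 and 1.72 CPM in D2 neurons.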

How the data were processed

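Single-nucleus RNA was counted in 4 libraries, with a library, a pool of 4 rats, as the replicate. The authors deposited raw UMI counts per gene and nucleus, made with Cell Ranger 6.1.2, per the file headers. The submitters' processing notes name the rn7 build. The annotation and the counting options (not given in the sources used here) could move single genes. Genes that overlap others cannot be told apart in such counts. Members were picked by the stated rule from nuclei with at least 200 genes (30560 listed features, 7 of 183 listed genes not found by symbol). The members and gene lists were chosen with earlier results of these data known. CPM in members beside other nuclei use all UMIs of the gate. Clusters came from scanpy 1.11.5 (2000 variable genes, 30 components, 15 neighbours, Leiden resolution 0.5) on 24843 nuclei, after nuclei over 5% mitochondrial UMIs and the highest Scrublet scores (0.8% per 1000 nuclei) were left out, and doublets stayed in the main member set. UMIs summed per library were tested with edgeR 4.0.16 (R 4.3.3, TMM, filterByExpr by treatment, sex and treatment terms, 0.05). This leaves 1 residual degree of freedom, moderated with 48.3 prior degrees of freedom. DESeq2 1.42.0, other scalings, filters, Klhl1 limits, left-out libraries and the whole cluster were tried. The test was checked on simulated counts, with 6 unchanged genes called. Named genes are the listed genes, the 20 leading over other GABAergic nuclei (at least 20 member UMIs in every library), and up to 12 called genes per direction with 1 sign in both sexes, or the 5 with the smallest p where fewer than 5 were called. Values of some listed genes are not reported here.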

Additional observations from a re-analysis of the deposited data

Results flagged for a closer look

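For 4 genes of the report the cocaine effect in members differed from that in D1 neurons of the same libraries by the interaction test (edgeR, library as a block). The differences in log2 fold change, members minus D1 neurons, were -1.31 for Meis2, -1.65 for Arhgap6, 1.95 for Tmem178a and -1.06 for Schip1. Without the block none of these 4 passed, with adjusted p from 0.135 to 0.602.

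Against D2 neurons, 15 such genes differed by the same test. For genes with a fold change of their own in members, the differences were 1.98 for Ndst4, 1.34 for Enpp2, 1.5 for Tmem178a, 0.99 for Foxp2, -1.86 for Arhgap6, -1.12 for Schip1, -1.23 for Tmem132d, -1.26 for Meis2 and -1.51 for Rarb. For genes with a member log2 fold change of at most 0.29 and a lower level in D2 neurons after cocaine, they were 2.04 for Lhx8, 1.37 for Dscam, 1.16 for Iqsec3, 1.00 for Tafa1, 0.99 for Clstn2 and 0.98 for Plcb4. Without the block 9 of the 15 still passed and 6 did not, with adjusted p of 0.535 for Rarb, 0.427 for Tafa1, 0.196 for Tmem178a, 0.179 for Schip1, 0.0628 for Foxp2 and 0.0598 for Clstn2. Rarb rests on 55, 18, 71 and 1 member UMIs in the 4 libraries, in the order of the report.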

How the results depend on the processing

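The lower share of members after cocaine kept its direction in all 10 alternatives, and no share reached an exact permutation p under 0.333. Leaving out 1 library gave differences from -1.06 to -0.186 percentage points. The 2 called genes became 6 with relative log expression factors, 0 with plain library totals, 10 without a filter, 0 without the sex term, 6 without doublets, 11 at a Klhl1 limit of 1 UMI, 0 at 3 UMIs and 0 with DESeq2. Leaving out 1 library gave 1 to 76 calls, in fits without a sex term. Without the library block, 2 genes differed from D1 neurons in place of 14. Of 137 alternative values of the 10 genes ranked by p, 94 kept direction and side of the threshold, 14 lost the call, 24 gained one and 5 turned sign, all in the whole cluster, an alternative added after seeing the data: Ndst4 -0.20, Tmem178a -0.14, Arhgap6 0.22, Meis2 0.32 and Cyct 0.01. The cause was not tested. The cocaine male library, with 11 members and 82376 UMIs, limits the precision of every comparison in males. The planned set of clusters made up at least by 50% of members could not be built. Sex pairs the libraries and is a term of the reported fit, and without it 0 genes were called. No paired analysis by replicate number was possible, because the labels carry none.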

Other observations

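Among genes outside the lists, named after their values were seen, Zfp804b and Nxph1 differed from D1 neurons both with and without the library block. Vwc2 had a larger difference, 2.21 ± 0.437 SE, but did not pass without the block (edgeR adjusted p = 0.135). Zfp804b, a zinc-finger gene, was at 472, 610, 415 and 1240 CPM in members of the 4 libraries, in the order of the report, and at 53.9, 24.1, 29.2 and 21.9 in D1 neurons. The difference in cocaine effect for Zfp804b was 1.70 ± 0.247 SE (edgeR adjusted p = 6.9e-08). Nxph1, a ligand of neurexins, was at 709, 880, 795 and 1470 CPM in members, and at 50.8, 31.6, 58.9 and 36.9 in D1 neurons, with a difference of 1.21 ± 0.243 SE. Il1rapl2, a synaptic adhesion gene that leads the second cluster of members, was at 1090, 1260, 804 and 2100 CPM in members and at 121, 81.6, 103 and 30.2 in D2 neurons, a difference of 1.79 ± 0.236 SE. Its log2 fold change was 0.73 in members and -1.1 in D2 neurons, and for Nxph1 it was 0.54 in members and -0.70 in D1 neurons. For Zfp804b, Nxph1 and Il1rapl2 the cocaine male value was the highest of the 4 libraries, and sub-cluster 5, with 29 of its 30 members from that second cluster, held 44.4% of the clustered members of cocaine male. The part of that mix, and of the lower D1 and D2 levels, was not tested.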
